A study of Mus musculus with 6 samples.

Results

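Spock2, Itm2a, Crispld1 and Gcnt1 are 4 of the 24421 genes in a table of RNA-seq read counts from retinal endothelial cells of mouse pups at postnatal day 7. They were chosen by their measured values, as genes that were low in the Smad4-iECKO libraries, so their difference between the groups is given as a description with no test. The Smad4-iECKO group (3 samples) had floxed Smad4 together with the transgene Cdh5-CreERT2, a Cre recombinase that is driven by the promoter of the endothelial cadherin gene and activated by tamoxifen. The Smad4f/f group (3 samples) had floxed Smad4 without the transgene. Both groups were on a mixed BL6/CD1 background, and the same protocol is given for both, with tamoxifen injected at postnatal day 1. Smad4 encodes the mediator that BMP and TGF-beta signals share. The labels do not say how many pups a sample came from, nor which exons are floxed. Smad4 was at 128.2, 93.9 and 133.9 CPM (TMM-scaled counts relative to library size) in Smad4-iECKO replicates 1, 2 and 3, versus 109.5, 152.9 and 157.5 CPM in Smad4f/f replicates 1, 2 and 3. The groups overlapped, and a count over the whole gene does not check the genotype.

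The 4 genes encode proteins of different families. Spock2 encodes testican-2, a secreted, calcium-binding proteoglycan of the SPARC family that carries glycosaminoglycan chains. Itm2a encodes a small membrane protein with a BRICHOS domain, is known as a marker of brain and retinal endothelium, and is also expressed in T cells and cartilage. Crispld1 encodes a secreted protein of the CAP family, named after cysteine-rich secretory proteins. Gcnt1 encodes a Golgi glycosyltransferase that adds the core 2 branch to mucin-type O-glycans, a step in making ligands for selectins. Neural endothelium forms a barrier that depends on WNT and norrin signals, and Spock2 and Itm2a are commonly listed among the genes of that barrier endothelium.

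In GENCODE M21 (mm10) all 4 are protein-coding genes. Spock2 (ENSMUSG00000058297.16) lies on the plus strand of chromosome 10, from 60106219 to 60135198. Itm2a (ENSMUSG00000031239.5) lies on the minus strand of chromosome X, from 107397099 to 107403376. Crispld1 (ENSMUSG00000025776.13) lies on the plus strand of chromosome 1, from 17727045 to 17766344. Gcnt1 (ENSMUSG00000038843.18) lies on the minus strand of chromosome 19, from 17326141 to 17372844. RefSeq promoter sequence (GRCm38.p6) was matched for 3 of the 4 members, Spock2, Itm2a and Gcnt1, and it is shown because these genes were low in the same libraries. The stretches run 5′ to 3′ on the gene's strand from 250 to 31 bases before RefSeq's start site. They are chr10:60106007-60106226 for Spock2, chrX:107403391-107403610 for Itm2a and chr19:17372875-17373094 for the most upstream of the 3 start sites listed for Gcnt1. RefSeq and GENCODE place the Spock2 start differently, and the last 8 bases of its stretch lie inside the gene as GENCODE annotates it. Capitals mark matches, on either strand, to CAGAC (the SMAD box), GGCGCC (a site type bound by BMP-activated SMADs), CTTTGA (the core of a TCF/LEF site) and AGGAAG (an ETS core).
Spock2: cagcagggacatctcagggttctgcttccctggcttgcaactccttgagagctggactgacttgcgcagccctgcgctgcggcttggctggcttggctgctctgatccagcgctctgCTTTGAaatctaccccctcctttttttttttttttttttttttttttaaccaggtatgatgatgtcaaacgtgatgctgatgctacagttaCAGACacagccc
Itm2a: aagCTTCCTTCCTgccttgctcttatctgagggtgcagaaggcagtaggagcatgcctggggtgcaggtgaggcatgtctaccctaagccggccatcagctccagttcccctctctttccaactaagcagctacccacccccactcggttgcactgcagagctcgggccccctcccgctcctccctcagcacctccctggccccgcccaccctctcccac
Gcnt1: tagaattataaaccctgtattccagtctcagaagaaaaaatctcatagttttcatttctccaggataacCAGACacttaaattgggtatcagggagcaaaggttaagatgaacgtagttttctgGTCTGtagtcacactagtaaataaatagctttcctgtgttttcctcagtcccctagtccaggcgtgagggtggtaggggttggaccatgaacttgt
The Spock2 stretch held 1 SMAD box, beginning 42 bases before RefSeq's start site and ending on the first base of the GENCODE gene, and 1 TCF/LEF core at 133 bases. The Gcnt1 stretch held 2 SMAD boxes, at 181 and 126 bases. The Itm2a stretch held 2 ETS cores on the reverse strand, at 247 and 243 bases, which share their end bases. GGCGCC was not found in the 3 stretches printed. Of the 2 other Gcnt1 stretches, which are not printed, the middle one held GGCGCC at 99 bases, 3 ETS cores and 0 SMAD boxes, and the most downstream one 2 SMAD boxes and 3 ETS cores. Of 32851 RefSeq promoter stretches of the same 220 bases, 38.5% held a SMAD box, 8.16% GGCGCC, 12.6% the TCF/LEF core and 26.1% the ETS core. A match is a run of letters and was not tested for binding.

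Total counts were 17677696, 2233360 and 12680649 in the Smad4-iECKO libraries and 12633018, 23164952 and 13747917 in the Smad4f/f libraries (replicates 1, 2 and 3 in each). Depth sets what can be detected: 3 counts, used here as the one-sided upper limit for a count of 0, were 1.39 CPM in Smad4-iECKO replicate 2 and 0.123 to 0.239 CPM in the other 5 libraries. Replicate 2 of each group bears the sample title prefix Lit40, and the other 4 samples bear Lit38. The labels do not state what the prefix means. A list of 24 endothelial identity genes, among them Pecam1, Cdh5 and Cldn5, averaged 6.30, 6.97 and 7.04 log2 CPM in Smad4-iECKO replicates 1, 2 and 3. It averaged 8.08, 5.57 and 7.22 log2 CPM in Smad4f/f replicates 1, 2 and 3. Smad4f/f replicate 2 thus had the lowest endothelial level of the 6 libraries and Smad4f/f replicate 1 the highest. In these bulk samples, fewer cells of a type and less RNA per cell cannot be told apart.

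Spock2 and Itm2a were abundant transcripts, and in both of them 2 Smad4f/f libraries stood high above the other 4 libraries. Spock2 was at 140.7, 365.4 and 187.5 CPM in Smad4-iECKO replicates 1, 2 and 3, versus 1505, 254.3 and 1245 CPM in Smad4f/f replicates 1, 2 and 3. Smad4f/f replicate 2 lay inside the range of the Smad4-iECKO libraries, so the groups overlapped. The mean was 231.2 ± 118.5 CPM in Smad4-iECKO, versus 1001 ± 659.8 CPM in Smad4f/f (SD, n = 3 each). Itm2a was at 59.5, 62.8 and 87.1 CPM in Smad4-iECKO, versus 496.9, 75.1 and 218.3 CPM in Smad4f/f. Again Smad4f/f replicate 2 fell within the Smad4-iECKO range, while the Smad4-iECKO libraries spanned only 1.46-fold. The mean was 69.8 ± 15.05 CPM in Smad4-iECKO, versus 263.4 ± 214.5 CPM in Smad4f/f (SD, n = 3 each). The fitted log2 fold change of Smad4-iECKO over Smad4f/f was -2.12 (SE 0.65) for Spock2 and -1.91 (SE 0.59) for Itm2a.

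Gcnt1 was a transcript of low to moderate level and did not overlap between the groups. It was at 1.56, 1.86 and 3.67 CPM in Smad4-iECKO replicates 1, 2 and 3, versus 25.5, 4.20 and 20.4 CPM in Smad4f/f replicates 1, 2 and 3. The nearest pair was Smad4-iECKO replicate 3, with 46 reads, and Smad4f/f replicate 2, with 102 reads. The value of Smad4-iECKO replicate 2 rested on 4 reads, with an exact two-sided Poisson interval of 0.507 to 4.76 CPM that takes in Smad4f/f replicate 2. The mean was 2.36 ± 1.14 CPM in Smad4-iECKO, versus 16.7 ± 11.1 CPM in Smad4f/f (SD, n = 3 each), and the log2 fold change was -2.78 (SE 0.73).

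Crispld1 was close to the detection limit in the Smad4-iECKO libraries. Its counts were 4, 0 and 1 in Smad4-iECKO replicates 1, 2 and 3, against 95, 32 and 54 in Smad4f/f replicates 1, 2 and 3. In CPM these were 0.222, 0 and 0.0797 in Smad4-iECKO, against 7.49, 1.32 and 4.04 in Smad4f/f. The mean was 0.101 ± 0.113 CPM in Smad4-iECKO, versus 4.28 ± 3.09 CPM in Smad4f/f (SD, n = 3 each). The groups did not overlap, but the count of 0 in Smad4-iECKO replicate 2 allows up to 1.39 CPM by the limit of 3 counts, above the 1.32 CPM of Smad4f/f replicate 2. Summed over libraries, 5 reads in Smad4-iECKO stood against 181 in Smad4f/f, which per effective library size is a ratio of Smad4f/f over Smad4-iECKO of 23.5 (95% exact interval 9.89 to 73.3). The same ratio for Gcnt1, from 78 reads in Smad4-iECKO and 699 in Smad4f/f, was 5.82 (4.60 to 7.45). These intervals cover counting error only and leave out the spread between samples. The fitted log2 fold change of Crispld1, -4.83 (SE 1.06), depends on the prior count because of the near-empty libraries.

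**Figure D1:**
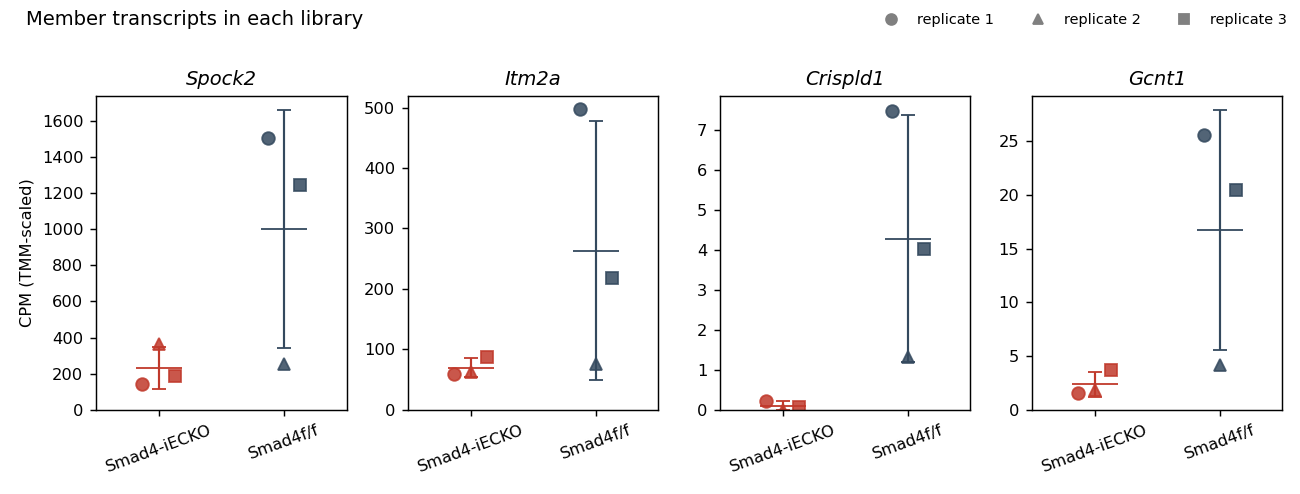
TMM-scaled CPM of each member (linear axis from 0, 1 panel per gene) in 3 Smad4-iECKO and 3 Smad4f/f libraries; points are libraries, horizontal bars the mean and whiskers 1 SD, with the lower whisker of Crispld1 in Smad4-iECKO stopped at 0. Smad4f/f replicate 2 (triangle) is the lowest Smad4f/f library in every panel, at 254.3, 75.1, 1.32 and 4.20 CPM in Spock2, Itm2a, Crispld1 and Gcnt1.

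Counts of calls are given for orientation, since the members were picked on this same contrast. By edgeR's quasi-likelihood test with Benjamini-Hochberg adjustment over 14362 genes, 0 of the 4 members and 0 genes in all (0%) were lower in Smad4-iECKO at an adjusted p under 0.05. At an unadjusted p under 0.05 there were 188 genes in either direction. DESeq2, the alternative tool, called 1 of the 4 lower, Crispld1, where it called 3 of 14359 genes lower (0.0209%), 8 higher, and 305 at an unadjusted p under 0.05. In CPM, 2 of the 4 (Crispld1 and Gcnt1) lay in every Smad4-iECKO library below every Smad4f/f library, as did 406 of 14362 genes (2.83%).

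Per length of exon Spock2 and Itm2a had similar means within each group, with Gcnt1 well below them and Crispld1 the lowest. Scaled to the exon length annotated in GENCODE M21, Spock2 was at 41.8 CPM per kb in Smad4-iECKO and 181.0 in Smad4f/f, and Itm2a at 40.01 in Smad4-iECKO and 151.0 in Smad4f/f. Gcnt1 was at 0.410 CPM per kb in Smad4-iECKO and 2.90 in Smad4f/f, and Crispld1 at 0.0223 in Smad4-iECKO and 0.948 in Smad4f/f. Spock2 and Itm2a did not keep an order within the libraries. Itm2a was the higher of the pair, per kb, in Smad4-iECKO replicates 1 and 3 and in Smad4f/f replicate 1, and Spock2 in Smad4-iECKO replicate 2 and in Smad4f/f replicates 2 and 3. Gcnt1 stayed below both of them and above Crispld1 in each of the 6 libraries.

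When each member was taken relative to the endothelial list of the same library, Smad4f/f replicate 2 no longer stood apart from its group. The relative level is the member's log2 CPM, computed with a prior count of 2, minus the list's mean log2 CPM. For Spock2 it was 0.83, 1.54 and 0.51 in Smad4-iECKO replicates 1, 2 and 3, against 2.48, 2.42 and 3.07 in Smad4f/f replicates 1, 2 and 3. For Itm2a it was -0.40, -0.999 and -0.60 in Smad4-iECKO, against 0.88, 0.66 and 0.55 in Smad4f/f. Every Smad4-iECKO library was below every Smad4f/f library in both genes.

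Gcnt1 stood at -5.54, -5.97 and -5.11 relative to the list in Smad4-iECKO, against -3.39, -3.45 and -2.85 in Smad4f/f. Crispld1 stood at -7.75, -9.76 and -9.20 in Smad4-iECKO, against -5.15, -5.02 and -5.15 in Smad4f/f. These 2 genes did not overlap either, so 4 of 4 members were below in every Smad4-iECKO library on this scale. The same held for 86 of 14362 genes (0.599%), and the members' count was not independent of their choice. The Smad4-iECKO values of Crispld1 follow mainly from the prior count. At the mean Smad4f/f relative level, the 3 Smad4-iECKO libraries would hold 41.3, 7.85 and 48.0 Crispld1 reads, where 4, 0 and 1 were counted. The differences of the group means were -1.69 for Spock2, -1.37 for Itm2a, -3.80 for Crispld1 and -2.31 for Gcnt1. Of the 24 list genes 18 had negative and 6 positive log2 fold changes (median -0.34), with 0 called by edgeR and 1 at an unadjusted p under 0.05.

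**Figure D2:**
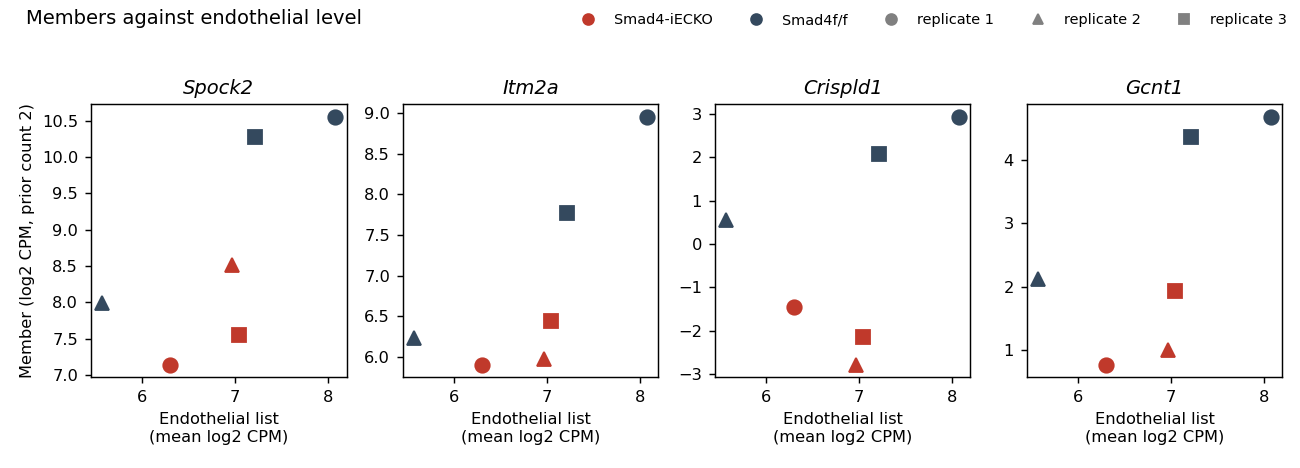
Member level (log2 CPM, prior count 2) against the mean log2 CPM of the 24 endothelial identity genes, 1 point per library, with colours for the groups and shapes for the replicates. In each panel the 3 Smad4f/f points rise with the endothelial level, which runs from 5.57 to 8.08 in that group, and the 3 Smad4-iECKO points, at endothelial levels of 6.30 to 7.04, lie lower for their endothelial level than the Smad4f/f points do for theirs.

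Within the Smad4f/f group each member varied over 5-fold between libraries. The highest Smad4f/f library exceeded the lowest 5.92-fold in Spock2, 6.62-fold in Itm2a, 5.69-fold in Crispld1 and 6.09-fold in Gcnt1. For 1000 Spock2 reads there were 11.1, 5.09 and 19.6 Gcnt1 reads in Smad4-iECKO replicates 1, 2 and 3, against 17.0, 16.5 and 16.4 in Smad4f/f replicates 1, 2 and 3. On the same base there were 423.2, 171.8 and 464.3 Itm2a reads in Smad4-iECKO, against 330.3, 295.2 and 175.3 in Smad4f/f. For 1000 Itm2a reads there were 26.1, 29.6 and 42.1 Gcnt1 reads in Smad4-iECKO, against 51.4, 55.9 and 93.6 in Smad4f/f, without overlap. The value of 29.6, in Smad4-iECKO replicate 2, rested on 4 Gcnt1 reads and 135 Itm2a reads, so its counting error is wide. The genes of these ratios were picked on this contrast, and the ratios were not tested. Across the 6 libraries the Pearson correlations of log2 CPM between members ran from 0.81 (Spock2 with Crispld1) to 0.95 (Itm2a with Gcnt1). Ranked among the other tested genes by this correlation, Crispld1 was number 205 for Spock2 and Gcnt1 number 45 for Itm2a. The correlations of Crispld1 rest on 4, 0 and 1 reads in Smad4-iECKO. All 4 members were chosen by the same group difference. Their Pearson correlations with the mean log2 CPM of the endothelial list were 0.72 for Spock2, 0.78 for Itm2a, 0.37 for Crispld1 and 0.63 for Gcnt1. What lies behind the correlations between members was not tested.

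The 2 title prefixes gave different pictures for Spock2. In the 4 libraries with prefix Lit38 the mean CPM of Smad4f/f was 8.38-fold that of Smad4-iECKO for Spock2, 4.88-fold for Itm2a, 38.2-fold for Crispld1 and 8.80-fold for Gcnt1. In the Lit40 pair, with 1 library per group and no test, the ratio of the Smad4-iECKO level to the Smad4f/f level was 1.44 for Spock2, 0.836 for Itm2a and 0.443 for Gcnt1. Spock2 was thus higher in the Smad4-iECKO member of the pair, and a difference in Crispld1 was not detectable at its depth. Gcnt1 rested on 4 reads in that library, with an exact Poisson interval of 0.507 to 4.76 CPM. That interval takes in the 4.20 CPM of Smad4f/f replicate 2. The endothelial list averaged 6.97 log2 CPM in the Smad4-iECKO library of the pair and 5.57 in the Smad4f/f library. Relative to the list, the difference of Smad4-iECKO minus Smad4f/f in the pair was -0.88 for Spock2, -1.66 for Itm2a and -2.52 for Gcnt1. Without Smad4f/f replicate 2 the mean of Smad4f/f over that of Smad4-iECKO was 5.95-fold for Spock2, 5.12-fold for Itm2a, 57.3-fold for Crispld1 and 9.74-fold for Gcnt1, where all 6 libraries gave 4.33-fold, 3.77-fold, 42.6-fold and 7.08-fold. The folds of Crispld1 rest on 5 reads in the Smad4-iECKO libraries. Without the shallow Smad4-iECKO replicate 2 the edgeR log2 fold changes of Smad4-iECKO over Smad4f/f were -2.63 for Spock2, -1.87 for Itm2a, -4.70 for Crispld1 and -2.71 for Gcnt1. With prefix as a block in the edgeR fit, the log2 fold changes were -2.01, -1.65, -5.16 and -2.70 for Spock2, Itm2a, Crispld1 and Gcnt1.

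The closest relatives of the members played no part in the choice, and none of those tested was called. Spock1 and Spock3 encode the other testicans, which in human cells inhibit membrane-type matrix metalloproteinases, an inhibition that testican-2 counters. Spock1 was at 9.50, 10.7 and 5.66 CPM in Smad4-iECKO replicates 1, 2 and 3, versus 5.52, 11.4 and 15.3 CPM in Smad4f/f replicates 1, 2 and 3. Spock3 was at 10.7, 10.7 and 7.41 CPM in Smad4-iECKO, versus 8.59, 10.5 and 12.9 CPM in Smad4f/f. Both groups overlapped in both genes, with log2 fold changes of -0.34 (SE 0.51) and -0.16 (SE 0.41). Per kb of exon Spock2 was the most abundant testican in all 6 libraries, including the Smad4-iECKO libraries, where it averaged 41.8 CPM per kb beside 1.03 for Spock1 and 1.59 for Spock3.

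Itm2b and Itm2c, the other ITM2 genes, were also abundant in these libraries. Itm2b, which is mutated in familial dementias and whose product is cut by furin, was at 201.7, 257.0 and 259.2 CPM in Smad4-iECKO, versus 627.0, 181.0 and 246.5 CPM in Smad4f/f. Its Smad4f/f replicate 1 was the 1 library that stood out. Itm2c was at 76.1, 125.5 and 112.0 CPM in Smad4-iECKO, versus 168.9, 56.3 and 100.8 CPM in Smad4f/f. The log2 fold changes were -0.55 (SE 0.46) and -0.06 (SE 0.42), with overlapping groups. Per kb of exon the mean of Itm2b was above that of Itm2a in Smad4-iECKO, at 87.6 beside 40.01 CPM per kb, and below it in Smad4f/f, at 128.7 beside 151.0 CPM per kb. By library, Itm2b was the higher in all 3 Smad4-iECKO libraries and in Smad4f/f replicate 2, at 66.2 beside 43.0 CPM per kb, and the lower in Smad4f/f replicates 1 and 3.

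Crispld2, the other CRISPLD gene, had 25, 0 and 44 reads in Smad4-iECKO replicates 1, 2 and 3, against 51, 16 and 15 in Smad4f/f replicates 1, 2 and 3. Its log2 fold change was -0.07 (SE 1.05), so the data leave a wide range for it. Gcnt2, which makes the branches of the I blood group antigen, was at 15.996, 27.4 and 32.8 CPM in Smad4-iECKO, versus 43.4, 13.7 and 24.0 CPM in Smad4f/f. Gcnt4, another core 2 enzyme, was at 10.9, 6.04 and 10.8 CPM in Smad4-iECKO, versus 9.62, 7.24 and 9.87 CPM in Smad4f/f. Their log2 fold changes were -0.09 (SE 0.47) and 0.08 (SE 0.43). Per kb of exon the mean of Gcnt4 was above that of Gcnt1 in Smad4-iECKO, at 1.81 beside 0.410 CPM per kb, and below it in Smad4f/f, at 1.75 beside 2.90 CPM per kb. By library, Gcnt4 was the higher in all 3 Smad4-iECKO libraries and in Smad4f/f replicate 2, at 1.42 beside 0.729 CPM per kb, and the lower in Smad4f/f replicates 1 and 3. Gcnt3 had 0 reads in Smad4-iECKO and 5 in Smad4f/f, and Gcnt7 had 7 in Smad4-iECKO and 8 in Smad4f/f, too few for the fit. The adjusted p of each relative tested was 1.00 (edgeR). No test compared a member with its relatives.

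**Figure D3:**
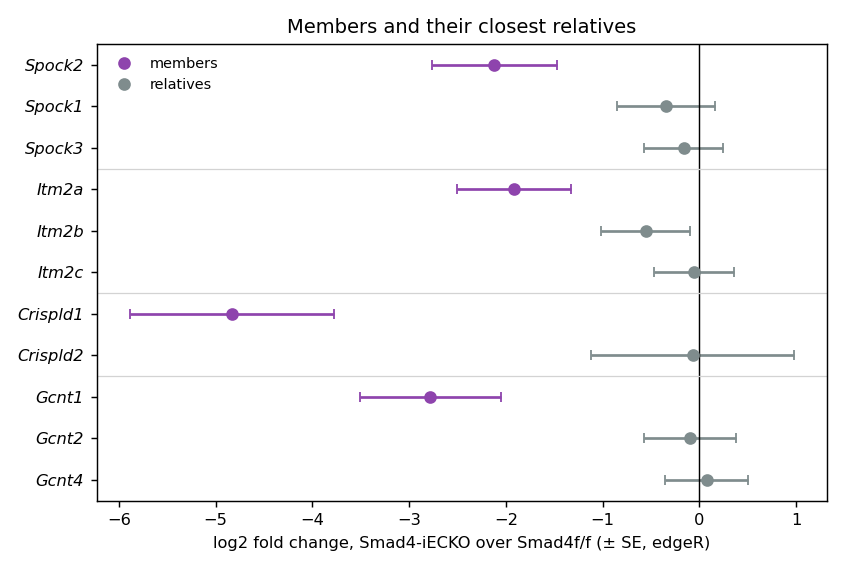
edgeR log2 fold change of Smad4-iECKO over Smad4f/f with its standard error (bars) for the 4 members (purple) and 7 tested relatives (grey), grouped by family. The members, picked as low, lie between -4.83 and -1.91, and the relatives between -0.55 and 0.08.

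The wider lists of relatives, partners and glycan enzymes held 0 called genes by edgeR and 0 at an unadjusted p under 0.05. They are described by sign, beside a median of -0.017 and 51.8% negative over all 14362 genes. In the testican and SPARC family, 6 of 7 tested genes were negative (median -0.26). Sparcl1, the SPARC-like matricellular gene, was at 341.9 ± 125.1 CPM in Smad4-iECKO, versus 789.7 ± 826.8 CPM in Smad4f/f (SD, n = 3 each), with 1730 CPM in Smad4f/f replicate 1. Sparc itself was at 1024 ± 356.8 CPM in Smad4-iECKO, versus 1227 ± 1001 CPM in Smad4f/f (SD, n = 3 each), again with overlap. Among the membrane-type metalloproteinases, Mmp2 and their TIMP inhibitors, 8 of 10 were positive (median 0.44). Mmp2, the gelatinase that membrane-type enzymes activate, was at 40.5 ± 10.2 CPM in Smad4-iECKO, versus 28.2 ± 5.06 CPM in Smad4f/f. Its activator Mmp14 was at 104.5 ± 24.5 CPM in Smad4-iECKO, versus 85.6 ± 50.4 CPM in Smad4f/f (SD, n = 3 each for both), and each overlapped.

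Enzymes that build heparan and chondroitin sulfate, the kind of chain that testicans carry, numbered 36 tested genes, 12 negative and 24 positive (median 0.16). The glucuronyl epimerase gene Glce was at 34.1, 19.1 and 43.0 CPM in Smad4-iECKO replicates 1, 2 and 3, versus 59.8, 44.2 and 50.7 CPM in Smad4f/f replicates 1, 2 and 3. The sulfotransferase gene Hs6st2 was at 3.89, 13.02 and 4.15 CPM in Smad4-iECKO, versus 0.710, 2.18 and 3.52 CPM in Smad4f/f. Neither overlapped, with the Smad4-iECKO libraries below for Glce and above for Hs6st2, and with unadjusted p of 0.091 and 0.064 by edgeR and an adjusted p of 1.00 for each. The abundant N-deacetylase gene Ndst1 was at 318.5 ± 31.1 CPM in Smad4-iECKO, versus 292.4 ± 58.8 CPM in Smad4f/f (SD, n = 3 each).

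Of the BRICHOS genes and enzymes that process ITM2 proteins, 7 of 8 were negative (median -0.33). The protease genes Adam10, at 215.0 ± 71.2 CPM in Smad4-iECKO, versus 253.3 ± 67.4 CPM in Smad4f/f, and Sppl2a, at 65.9 ± 26.9 CPM in Smad4-iECKO, versus 88.5 ± 32.8 CPM in Smad4f/f, both overlapped (SD, n = 3 each). Of the CAP family beside Crispld1, 3 genes passed the filter on low counts: Crispld2, Glipr2 and Clec18a, with log2 fold changes of -0.07, -0.32 and 0.28.

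Genes for mucin-type O-glycans, the structures that Gcnt1 branches, included 35 tested members, 14 negative and 21 positive (median 0.11). St3gal6, a sialyltransferase used in selectin ligands, was at 7.998, 2.79 and 10.05 CPM in Smad4-iECKO replicates 1, 2 and 3, versus 39.0, 6.01 and 17.0 CPM in Smad4f/f replicates 1, 2 and 3. The groups overlapped through Smad4f/f replicate 2, as they did for Spock2 and Itm2a (log2 fold change -1.50, SE 0.69). Galnt6, which starts O-glycan chains, had the opposite sign at a low level, 0.889, 2.32 and 1.99 CPM in Smad4-iECKO against 0.552, 0 and 0.449 CPM in Smad4f/f. C1galt1, which makes the core 1 substrate of Gcnt1, had a log2 fold change of -0.43 (SE 0.61), and its chaperone C1galt1c1 of -0.39 (SE 0.38). Of 8 tested sialomucins and selectin ligands, which carry such glycans, 4 were negative and 4 positive (median -0.09). The vascular sialomucin Podxl was at 493.2 ± 73.5 CPM in Smad4-iECKO, versus 462.8 ± 120.9 CPM in Smad4f/f, and Emcn at 39.4 ± 15.5 CPM in Smad4-iECKO, versus 65.3 ± 68.6 CPM in Smad4f/f (SD, n = 3 each).

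**Figure D4:**
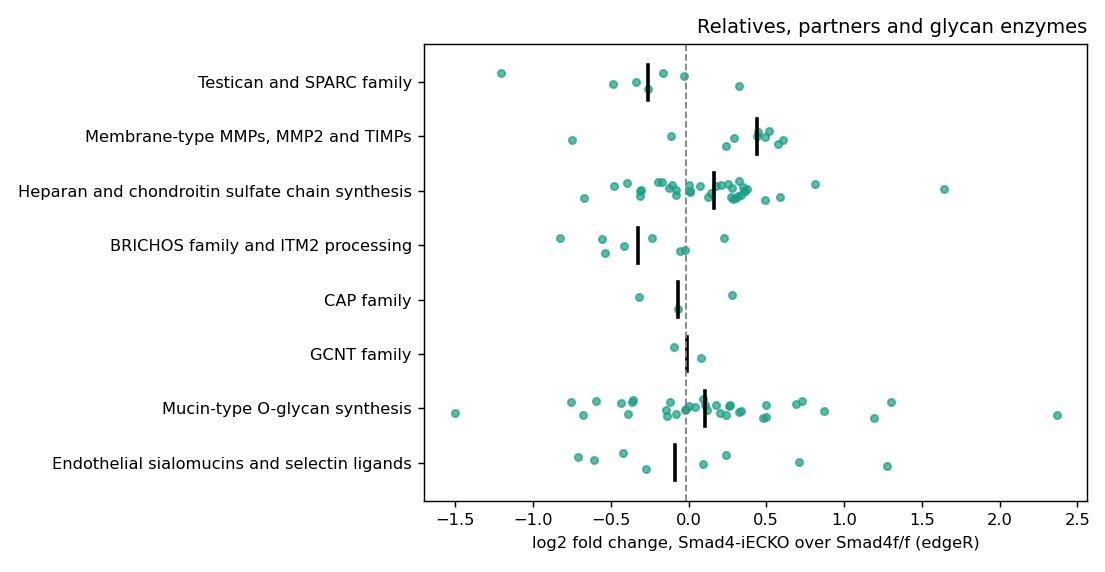
edgeR log2 fold changes of Smad4-iECKO over Smad4f/f for tested genes of 8 lists (points, members left out), with the list median (black bar) and the median of all tested genes (dashed line, -0.017). List medians lie between -0.33 and 0.44, and no point passed the test.

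The genes whose pattern over the 6 libraries was most like each member were ranked by the Pearson correlation of log2 CPM. Spock2 was nearest to Efr3b (0.99), a scaffold of phosphoinositide kinase at the membrane, Slc22a8 (0.99), an organic anion transporter of barrier endothelium, the neutral amino acid transporter gene Slc1a4 (0.98), the serine synthesis gene Psat1 (0.98) and the WNT inhibitor gene Apcdd1 (0.98). Slc22a8 was at 3.72, 8.83 and 7.49 CPM in Smad4-iECKO replicates 1, 2 and 3, versus 54.96, 7.86 and 40.1 CPM in Smad4f/f replicates 1, 2 and 3, the same order of libraries as Spock2. Psat1 shared that order over a narrow range, 25.4 to 28.4 CPM in Smad4-iECKO, versus 26.8 to 34.7 CPM in Smad4f/f.

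Itm2a was nearest to the selenium transport gene Sepp1 (0.9997), Stard3nl (0.998), Tsc22d1 (0.992), Cthrc1 (0.99) and the co-chaperone gene Bag2 (0.99). Sepp1 was at 47.0, 46.9 and 74.5 CPM in Smad4-iECKO, versus 678.7, 58.8 and 239.2 CPM in Smad4f/f. Like Itm2a, it was high in 2 Smad4f/f libraries and overlapped through the third.

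Gcnt1 was nearest to Slc16a1 (0.99), the lactate and ketone transporter gene, Lipe (0.98), which encodes hormone-sensitive lipase, Mex3c (0.97), Glrx5 (0.97) and Apitd1 (0.97). The genes near Crispld1 included Gorab (0.95), Slc16a1 (0.95), Oxa1l (0.95) and Ifrd1 (0.95). Crispld1 had 4, 0 and 1 reads in Smad4-iECKO replicates 1, 2 and 3, so its log2 CPM there follows mainly from the prior count. Ifrd1 spanned a narrow range, 30.7 to 34.8 CPM in Smad4-iECKO, versus 37.1 to 39.0 CPM in Smad4f/f. So did Gorab, at 10.7 to 14.2 CPM in Smad4-iECKO, versus 16.7 to 19.3 CPM in Smad4f/f. Slc16a1 was among the 5 nearest of both Gcnt1 and Crispld1. It was at 32.9, 30.2 and 46.9 CPM in Smad4-iECKO, versus 393.8, 69.5 and 261.1 CPM in Smad4f/f, without overlap. A correlation above 0.9 was shared with 62 tested genes by Spock2, 157 by Itm2a, 39 by Crispld1 and 70 by Gcnt1. These likenesses describe 6 libraries that differ in group, endothelial level and depth, and the source of the likenesses was not tested.

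RNA of other retinal cells was present in every library. Of 20 gene lists compared by their share of counts in an exact two-sided permutation test, 0 reached an adjusted p under 0.05 (each was 1, and 3 against 3 cannot go below an unadjusted 0.1). Rod genes took 0.65% to 1.01% of counts in Smad4-iECKO and 0.669% to 1.30% in Smad4f/f, and 15 of 15 were detected. The microglia and macrophage list, 12 of 12 genes detected, took 0.00891% to 0.0114% in Smad4-iECKO and 0.00373% to 0.00562% in Smad4f/f, without overlap (unadjusted p = 0.1). The pericyte list took 0.118% to 0.202% in Smad4-iECKO and 0.0684% to 0.301% in Smad4f/f. Astrocyte genes took 0.0187% to 0.0692% in Smad4-iECKO and 0.0113% to 0.0403% in Smad4f/f. Fibroblast genes took 0.0307% to 0.0766% in Smad4-iECKO and 0.0111% to 0.0423% in Smad4f/f, with Lum at 0 in all libraries. Dcn had 0, 0 and 0 reads in Smad4-iECKO, against 3, 0 and 0 in Smad4f/f. Mfap5 had 4, 0 and 3 reads in Smad4-iECKO, against 0, 6 and 9 in Smad4f/f. Pdgfra is on both the astrocyte and the fibroblast list and is counted in each. It had 2687, 145 and 4860 reads in Smad4-iECKO, against 3134, 1390 and 1180 in Smad4f/f. By edgeR log2 fold change 12 of 12 microglia and macrophage genes, 6 of 6 astrocyte genes and 4 of 4 tested fibroblast genes were positive, and 0 were called. Their part in the members' levels was not tested.

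Itm2a is also a T cell gene, and lymphocyte genes were detected at low counts. Cd3e had 3, 0 and 8 reads in Smad4-iECKO replicates 1, 2 and 3, against 0, 4 and 0 in Smad4f/f replicates 1, 2 and 3. Cd8a had 32, 10 and 16 reads in Smad4-iECKO, against 7, 43 and 19 in Smad4f/f, and Lck 10, 0 and 38 reads in Smad4-iECKO, against 15, 16 and 8 in Smad4f/f. Itm2a had 1072, 135 and 1092 reads in Smad4-iECKO, against 6302, 1824 and 2918 in Smad4f/f. All 10 lymphocyte genes listed were detected, though not in every library. Ptprc, which microglia and other leukocytes also express, had 146, 4 and 216 reads in Smad4-iECKO, against 75, 26 and 49 in Smad4f/f. It had the most reads of the 10 in each Lit38 library, so the list's share is not particular to lymphocytes. Together the 10 genes took 0.000851% to 0.00296% of counts in Smad4-iECKO and 0.00054% to 0.00141% in Smad4f/f. The 3 that passed the filter on low counts, Ptprc among them, had positive log2 fold changes. The part of lymphocytes in the Itm2a level was not tested. The barrier and capillary list without Spock2 and Itm2a, 31 genes, had 28 negative and 3 positive log2 fold changes (median -0.98), with 0 called and 11 at an unadjusted p under 0.05 by edgeR. Over all 14362 genes 51.8% were negative, and 188 had an unadjusted p under 0.05 by edgeR. The list was chosen with earlier results of these data known, so its signs are a description. The list took 0.281% to 0.439% of counts in Smad4-iECKO and 0.267% to 0.979% in Smad4f/f.

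Sequence shared with other genes was looked for in the annotation. No 50-base stretch of Itm2a or Gcnt1 transcripts occurred in a transcript of another gene in GENCODE M21, and 0.596% of those of Spock2 and 0.175% of those of Crispld1 did. Crispld1 shares 548 of its 4515 exonic bases with the antisense gene Gm16070, and the library kit does not mark strand. Gm16070 itself had 3, 0 and 0 reads in Smad4-iECKO, against 9, 10 and 4 in Smad4f/f, and reads of the shared bases cannot be told apart. The values of Crispld1, with 4, 0 and 1 reads in Smad4-iECKO, are uncertain to that extent. Among the relatives, Gcnt4 shares 535 exonic bases with an antisense gene and Gcnt2 shares 295 and 221 with a pair of them.

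The authors' deposited table gave smaller log2 fold changes with narrower errors for the same genes. The settings behind its estimates are not known here, so their size may not be directly comparable with the values above. In the authors' deposited table the log2 fold change was -1.60 (SE 0.29) for Spock2, -1.49 (SE 0.28) for Itm2a, -2.88 (SE 0.33) for Crispld1 and -2.04 (SE 0.30) for Gcnt1. All 4 had an adjusted p under 0.05 in the authors' deposited table, where 810 of 14225 genes were lower at that threshold (5.69%) and 1095 higher. The count table held each sample in 3 columns whose values did not differ in any gene. DESeq2 on 1 column per sample gave standard errors of 0.62, 0.60, 1.14 and 0.72 for Spock2, Itm2a, Crispld1 and Gcnt1. DESeq2 on all 18 columns, as if they were separate samples, gave 0.38, 0.36, 0.59 and 0.41 with nearly unchanged log2 fold changes, and called 1725 genes in place of 11. Over the 14115 genes compared, the median standard error was 0.19 in the authors' deposited table. It was 0.21 with DESeq2 on all 18 columns and 0.46 on 1 column per sample. Whether the deposited comparison used all 18 columns is not given in the sources used here.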

How the data were processed

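Per the labels' protocols, RNA-seq libraries came from the Illumina TruSeq RNA v2 kit. STAR, DESeq2 and mm10 are named in the submitters' processing notes, without versions, and the counting tool is not given in the sources used here. The first of 2 tables held the authors' raw read counts per gene, in 18 columns. The second, per the file headers, held the authors' comparison: a mean normalized signal, log2 fold changes with standard errors, p-values with their adjusted form, and the score of the test. Each sample entered once, since its 3 columns held the same values.

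Counts of all genes were fitted with edgeR's quasi-likelihood test (version 4.0.16, in R 4.3.3) after TMM scaling. The filter was filterByExpr with a minimum count of 10 and a minimum total of 15, which left 14362 genes. The fit had no covariate, and p-values had Benjamini-Hochberg adjustment (threshold 0.05). The standard error was the log2 fold change divided by the root of F. DESeq2 1.42.0, limma-voom (limma 3.58.1), other scalings and filters, covariates, subsets of libraries, thinning and all 18 columns were alternatives. Figures were drawn with matplotlib 3.10.9, and the edgeR script was tested on simulated data. Total counts ran from 2233360 to 23164952 per library. Replicates were numbered in accession order. Nothing says that they were separate animals or cultures, so the p-values cover only the spread among these samples, which may be technical.

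The members and all gene lists were chosen with earlier results of these data known. Of 291 listed symbols 1 was not in the table. Genes named beside the members and their family were drawn from up to 3 per list with the smallest p, the 2 most abundant per list, and the 5 most correlated with each member. C1galt1, C1galt1c1, Cd3e, Cd8a, Lck, Ptprc, Lum, Dcn, Mfap5, Pdgfra and Gm16070 were added for their known roles, counts or position. Some genes that this rule would name are not reported here.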

Additional observations from a re-analysis of the deposited data

How the results depend on the processing

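Depth limits Crispld1 most, with 5 reads over the 3 Smad4-iECKO libraries, then Gcnt1, with 4 reads in Smad4-iECKO replicate 2; neither passed the filter after thinning to the smallest library. The labels give no replicate numbers that pair samples across groups. The title prefix, which both groups share, was fitted as a block and changed no call. Spock2 turned to 0.52 in the Lit40 pair alone, where Itm2a was -0.26 and Gcnt1 -1.12 (log2, no test). The value of Crispld1 in that pair, -3.34, is set by the prior count, since its Smad4-iECKO library held 0 reads. All other alternatives kept the 4 members below 0. Leaving out each library in turn, the log2 fold change ran from -2.63 to -1.71 for Spock2, -2.36 to -1.07 for Itm2a, -5.84 to -4.17 for Crispld1 and -3.32 to -2.34 for Gcnt1. Itm2a was -1.07 without Smad4f/f replicate 1. Scaling to the endothelial list gave -1.66, -1.35, -4.21 and -2.33 for Spock2, Itm2a, Crispld1 and Gcnt1, with the median of all genes at -0.15. Relative to the list, the differences over the left-out libraries ran from -1.98 to -1.47 for Spock2, -1.50 to -1.20 for Itm2a, -4.38 to -3.37 for Crispld1 and -2.52 to -2.09 for Gcnt1.

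The edgeR count of 0 genes held for its scalings, filters, covariates and left-out libraries. It was 11 with DESeq2, 8 with limma-voom and quality weights, 825 with edgeR and 1725 with DESeq2 on all 18 columns, and 7 and 15 of the relatives, partners and enzymes were then called; entering each sample 3 times raises the apparent n. As mean log2 CPM in place of the share of counts, the pericyte (0.25), amacrine and horizontal (0.053) and bipolar (0.0016) lists turned to the higher side. Of 1385 log2 fold changes of 58 other named genes under alternatives, 1287 kept their sign.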
